A study of Rattus norvegicus with 6 samples.

Results

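The receptors for noradrenaline, adrenaline and dopamine were followed here in dorsal root ganglia (DRG), the clusters of sensory neuron cell bodies beside the spinal cord, after injury of the sciatic nerve. The members were 9 receptor genes, namely the alpha1 receptors Adra1a, Adra1b and Adra1d, the alpha2 receptors Adra2a, Adra2b and Adra2c, the beta1 receptor Adrb1, and the dopamine receptors Drd1 and Drd2. A member was the row of the deposited table whose gene symbol equals its name. Each of the 9 had 1 such row, among 43350 rows in all.

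Ipsilateral L4–6 DRG of 3 male Sprague-Dawley rats were taken 11 days after chronic constriction injury (CCI), in which loose ligatures are tied around the sciatic nerve. They were compared with DRG of 3 male Sprague-Dawley rats taken 11 days after sham surgery, in which the nerve was exposed and not ligated; the labels give the sham rats no treatment. The rats were some weeks old when acquired, and animals were kept in either group only if their pain behaviour was of the kind looked for, so the comparison covers rats selected in that way. The methods describe 1 rat per sample, whereas the labels speak of a pooled sample at the library step, and the former reading was used. RNA depleted of ribosomal RNA was sequenced from the whole ganglion, in which fewer cells of a type and less RNA per cell cannot be told apart.

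Noradrenaline is released by sympathetic nerve fibres, which normally run to the blood vessels of the ganglion. Alpha1 receptors couple to Gq proteins and phospholipase C and excite cells, alpha2 receptors couple to Gi/o proteins, which lower cAMP, open inwardly rectifying potassium channels and close N-type calcium channels, and beta receptors couple to Gs proteins and raise cAMP. Dopamine receptors divide in the same way into the D1 class, which couples to Gs, and the D2 class, which couples to Gi/o. In sensory neurons alpha2 and D2 receptors are known to dampen transmitter release, and coupling between sympathetic fibres and injured sensory neurons has long been studied in neuropathic pain.

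The libraries held between 75423546 and 87615743 counts. The defining markers of the tissue were abundant in all 6 libraries. The 6 neuron markers summed to 3160 to 3340 FPKM (counts scaled by row length and by library total) in CCI and 2590 to 3060 FPKM in sham, and 0 of the 6 were called. All 3 CCI libraries were marked by injury genes, 5 of 5 of which were called higher. Their summed level was 401, 247 and 218 FPKM in CCI 1, 2 and 3 against 62.8 to 70.5 FPKM in sham. The study had already named these genes as higher in the same data, so their calls are no independent check of the groups. Markers of sympathetic neurons were near 0. Among them, Hand2 had 0 counts in every library, Dbh and Phox2a at most 12, Hand1 at most 21, and Slc6a2, the noradrenaline transporter, 89 to 218. Skeletal muscle markers set sham 1 apart, at 118 FPKM against 4.13 to 17.3 FPKM in the other 5 libraries.

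The receptors differed widely in level. By mean FPKM over the 6 libraries, which is per length and so can be compared between genes, Adra2c stood first at 4.38 FPKM (3.14 to 4.96), followed by Drd2 at 4.31 FPKM (2.88 to 7.83). These ranges overlapped, with Adra2c above Drd2 in 4 of 6 libraries, so the pair could not be ordered. Adra2a came next at 1.70 FPKM (1.44 to 2.06), then Adra1a at 0.937 FPKM (0.556 to 1.32), and the ranges of these neighbours did not overlap with each other or with that of Drd2. Below them came Adra1b at 0.552 FPKM, Adra1d at 0.300 FPKM, Adrb1 at 0.258 FPKM, Adra2b at 0.153 FPKM and Drd1 at 0.0714 FPKM. From Adra1a downward each gene's range overlapped with that of the next.

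To show where transcription of the most abundant members starts, the bases before the annotated start are printed for Drd2, Adra2c and Adra2a. They come from RefSeq for the rat assembly GRCr8, which is another build than that of the deposited coordinates, and 8 of the 9 members had an entry, Adra1a being the one without. Each run is the 250 bases upstream of the start, written 5′ to 3′ on the strand of the gene, with GC boxes (GGGCGG on either strand), the binding motif of Sp1, in capitals.
Drd2, chr8:58605153-58605402, plus strand: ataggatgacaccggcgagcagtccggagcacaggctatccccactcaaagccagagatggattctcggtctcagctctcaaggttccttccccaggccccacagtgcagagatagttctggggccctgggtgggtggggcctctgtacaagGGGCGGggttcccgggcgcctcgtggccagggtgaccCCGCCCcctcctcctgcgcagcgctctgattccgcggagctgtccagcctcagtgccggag
Adra2c, chr14:79697477-79697726, minus strand: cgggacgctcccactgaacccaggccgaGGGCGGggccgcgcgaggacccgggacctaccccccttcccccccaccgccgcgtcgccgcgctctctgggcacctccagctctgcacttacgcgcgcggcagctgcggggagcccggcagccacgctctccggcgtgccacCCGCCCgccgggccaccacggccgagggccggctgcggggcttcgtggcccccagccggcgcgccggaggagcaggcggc
Adra2a, chr1:263066530-263066779, plus strand: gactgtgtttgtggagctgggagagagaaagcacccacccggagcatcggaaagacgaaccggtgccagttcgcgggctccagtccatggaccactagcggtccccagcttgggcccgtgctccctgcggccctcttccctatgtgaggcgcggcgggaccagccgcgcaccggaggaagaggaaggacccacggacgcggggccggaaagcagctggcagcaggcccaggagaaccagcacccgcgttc
GC boxes stood in 3 of the 8 windows, with 2 each in Drd2, Adra2c and Adra2b, and 30.5% of all 33469 rat promoter windows of this length hold one. The windows printed were rich in G and C, at 66.0% in Drd2, 80.4% in Adra2c and 67.6% in Adra2a, against a median of 51.2% over all windows. The full cAMP response element TGACGTCA, read on both strands, was in 0 of the 8 and in 1.59% of all windows. Its 5-base part TGACG, which also lies within the full element, was in the Adrb1 window alone, against 18.2% of all. The AP-1 motif TGANTCA was in 0 of the 8 and in 6.34% of all, and the TATA box TATAAA was in 0 of the 8 and in 12.9% of all.

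Of the 9 members, 5 had the mean of at least 0.5 FPKM that was asked of a row to be tested (Adra1a, Adra1b, Adra2a, Adra2c and Drd2), and 4 were below it (Adra1d, Adra2b, Adrb1 and Drd1). A gene was called at the limits the study used, that is, with a p under 0.05 before adjustment and a log2 fold change beyond 0.58 either way, from edgeR's quasi-likelihood test over the 26663 rows tested. The one member called was Adra1a, which was lower in CCI. Of all rows tested, 1.26% were called lower (0.853% of the protein-coding ones) and 2.57% were called higher, and 0 of the 5 tested members were called higher. None of the 5 had an adjusted p under 0.05 in edgeR's test, which 0.0938% of all rows did. In DESeq2's test 1 of the 5 (Adra1a) had one, but the share of all rows with one was not counted there. The same number, 1 of 5, had CPM (counts brought to the same depth with TMM factors) that did not overlap between the groups, against 17.3% of all rows tested. The median log2 fold change over all rows tested was 0.01.

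**Figure D1:**
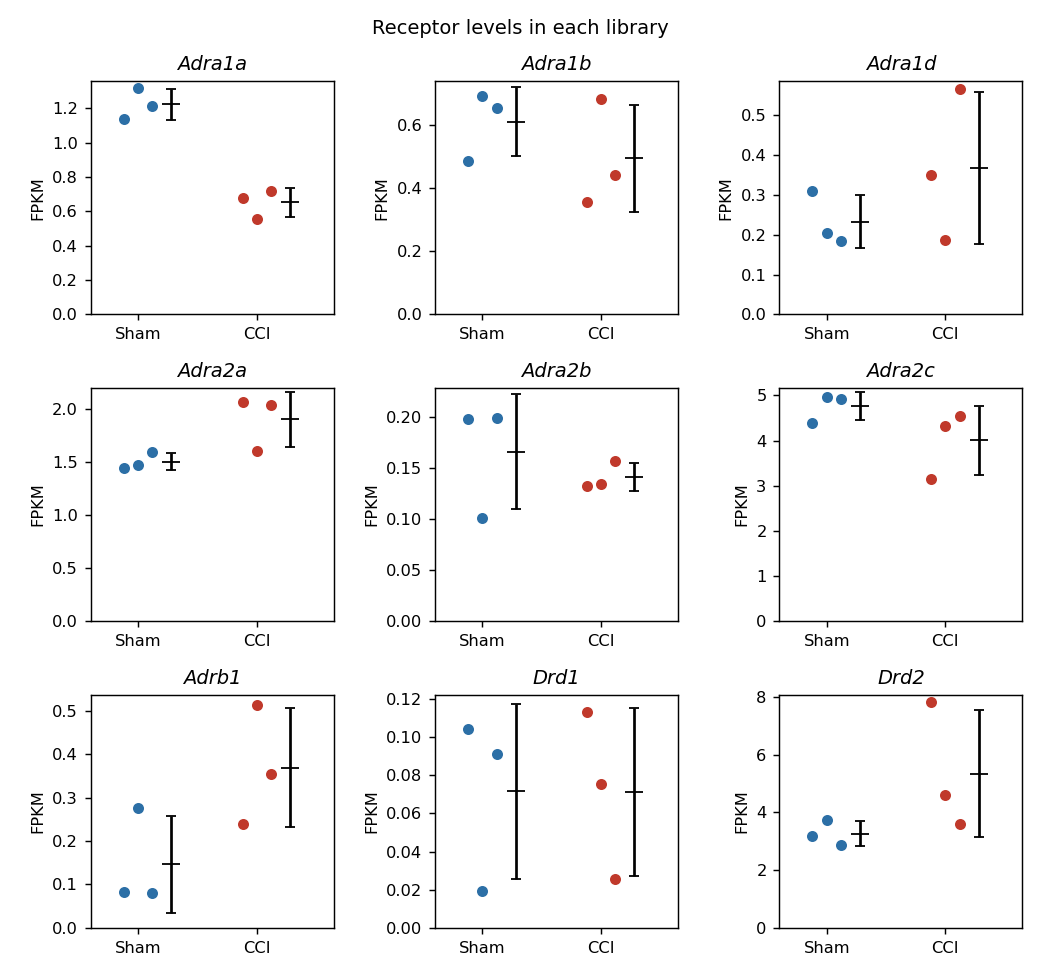
FPKM of each of the 9 receptors in the 3 sham (blue) and 3 CCI (red) libraries, 1 point per rat, with the group mean and SD in black beside them; each panel has its own vertical axis from 0. Adra1a is the gene whose groups lie far apart (0.556 to 0.720 FPKM in CCI against 1.14 to 1.32 FPKM in sham), while Drd2 reaches 7.83 FPKM in a single CCI library.

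Among the alpha1 receptors, Adra1a was lower in every CCI rat than in any sham rat. Its row lies on chromosome 15 from 43298794 to 43392451 (plus strand) in the coordinates of the deposited table, those of the rat genome its authors name V101. It held 124, 100 and 122 counts in CCI 1, 2 and 3, against 224, 237 and 226 in sham 1, 2 and 3. The highest CCI library was thus far below the lowest sham library. In FPKM the groups stood at 0.651 ± 0.0855 in CCI and 1.22 ± 0.0906 in sham (SD, n = 3 rats each). The log2 fold change was -0.92 (SE 0.18, 95% interval -1.36 to -0.48), that is 1.89-fold higher in sham than in CCI. In edgeR's quasi-likelihood test it was past the unadjusted limit, and its Benjamini-Hochberg adjusted p was 0.168. Over the 16 alternative settings that tested Adra1a, that adjusted p lay between 0.00841 (DESeq2) and 0.424 (edgeR without sham 2).

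A row without a gene name lay 2824 bases past the end of Adra1a, on the same strand of chromosome 15 from 43395276 to 43398247, and it was looked at after its values were seen. It held 108, 156 and 178 counts in CCI 1, 2 and 3, against 409, 441 and 377 in sham 1, 2 and 3. Here too every CCI library was below every sham library, at 0.575 ± 0.159 FPKM in CCI and 1.50 ± 0.165 FPKM in sham (SD, n = 3). Its log2 fold change was -1.40 (SE 0.24), with an adjusted p of 0.117 in edgeR's test. Whether its reads belong to Adra1a transcripts was not tested. With the counts of both rows summed, the log2 fold change of Adra1a was -1.21 (edgeR adjusted p = 0.0877). Another row without a gene name lay 87 bases from Adra2c, with no strand given. Its groups overlapped, its log2 fold change was -0.31 (SE 0.46), and it was not summed with Adra2c.

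**Figure D2:**
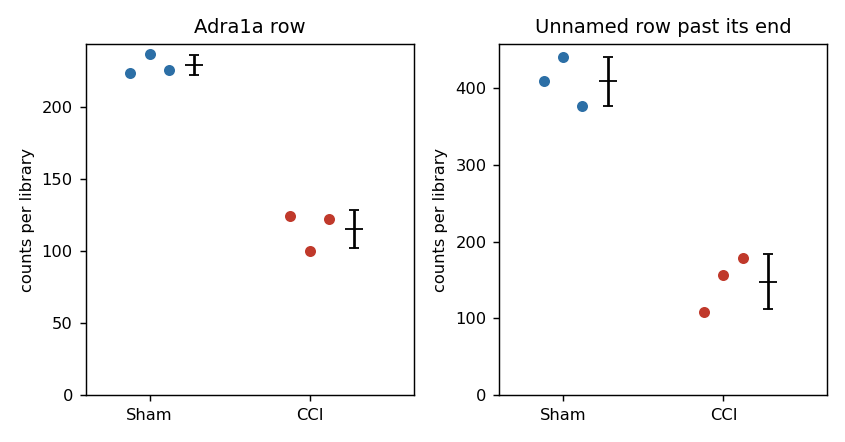
Counts per library of the Adra1a row (left) and of the unnamed row that follows it on the same strand (right), 1 point per rat, with the group mean and SD in black; both axes start at 0. In both rows the 3 CCI libraries (100 to 124 and 108 to 178 counts) lie below the 3 sham libraries (224 to 237 and 377 to 441 counts).

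The other alpha1 receptors were not called. Adra1b (chromosome 10, 29392762 to 29450644, minus strand) held 81, 152 and 93 counts after CCI, against 118, 153 and 151 after sham surgery. CCI 2 was level with the sham libraries and the groups overlapped. The log2 fold change was -0.31 (SE 0.30, 95% interval -1.04 to 0.41, edgeR adjusted p = 0.792). Adra1d (chromosome 3, 124129558 to 124145566, minus strand) was too low to be tested and held 92, 49 and 139 counts after CCI, against 88, 54 and 50 after sham surgery. CCI 3 was its highest library while CCI 2 was level with sham 2 and 3, and the fit without a filter on low rows gave a log2 fold change of 0.64 with an interval from -0.42 to 1.69.

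Together the alpha1 receptors summed to 1.39, 1.43 and 1.73 FPKM in CCI 1, 2 and 3 and to 1.94, 2.22 and 2.04 FPKM in sham 1, 2 and 3. The groups did not overlap, and the mean was 0.552 FPKM lower in CCI (1.51 ± 0.187 against 2.07 ± 0.141, SD, n = 3). Adra1a supplied 49.0%, 39.0% and 41.7% of that sum in CCI and 58.9%, 59.6% and 59.0% in sham, so that its share was 16.0 percentage points lower in CCI and nearly constant among sham rats. A design of 3 rats against 3 cannot give a two-sided exact permutation p below 0.1, and both differences reached that smallest p (0.167 when adjusted over the 5 class measures tested). Both measures contain Adra1a, so they do not add to its own result. The mean of Adra1b was 0.494 FPKM in CCI and 0.61 FPKM in sham, and that of Adra1d was 0.368 and 0.233 FPKM. The 7 smooth muscle and pericyte markers, cells in which alpha1 receptors are well known, summed to 42.5 to 47.1 FPKM in CCI and 34.6 to 43.5 FPKM in sham, with 0 of 7 called.

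**Figure D3:**
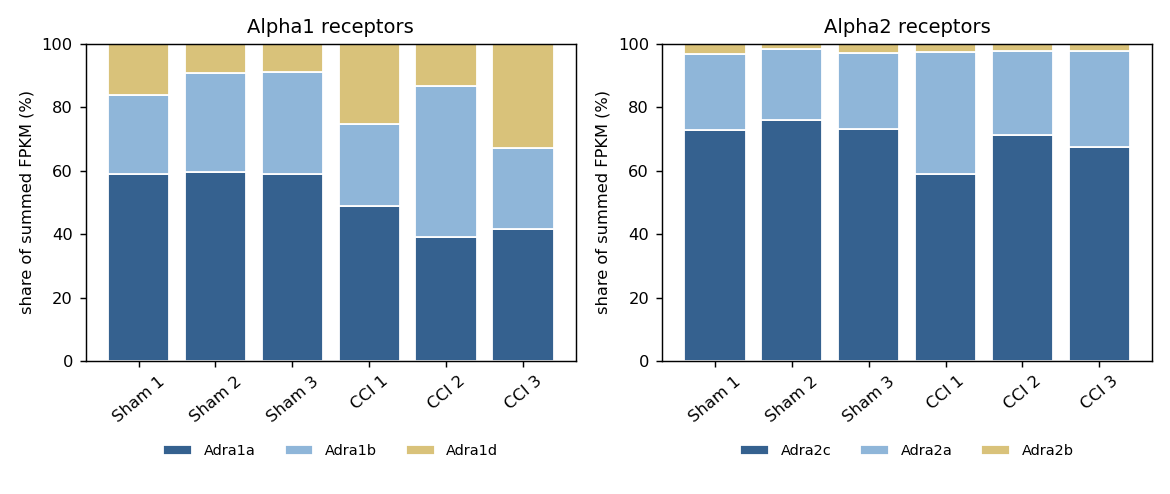
Share (%) of the summed FPKM of the alpha1 receptors (left) and of the alpha2 receptors (right) held by each gene in each of the 6 libraries. Adra1a holds 58.9% to 59.6% of the alpha1 sum in sham and 39.0% to 49.0% in CCI, and Adra2c holds 72.9% to 76.0% of the alpha2 sum in sham and 58.8% to 71.4% in CCI.

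The alpha2 receptors, the targets of clonidine, were not called in either direction. Adra2a, the subtype best known for spinal analgesia, lies on chromosome 1 from 274766283 to 274769081 (plus strand). It held 515, 395 and 473 counts in CCI 1, 2 and 3, against 387, 361 and 408 in sham 1, 2 and 3. In FPKM the groups only just failed to overlap, with CCI 2 at 1.60 and sham 3 at 1.59, and in TMM-scaled CPM they did overlap, with CCI 2 at 4.90 and sham 3 at 4.94. The log2 fold change was 0.33 (SE 0.15, 95% interval -0.03 to 0.69, edgeR adjusted p = 0.514).

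Adra2c, the most abundant alpha2 receptor here, lies on chromosome 14 from 80730307 to 80732010 (minus strand) and held 477, 650 and 640 counts after CCI, against 721, 743 and 769 after sham surgery. All 3 CCI counts were below the sham counts, but in FPKM, which takes depth into account, the groups overlapped (CCI 3 at 4.54, sham 1 at 4.40). The log2 fold change was -0.27 (SE 0.16, 95% interval -0.66 to 0.13, edgeR adjusted p = 0.651). Adra2b (chromosome 3, 119805941 to 119809987, plus strand) was low, with counts of 48, 48 and 53 after CCI, against 77, 36 and 74 after sham surgery. Its CCI libraries lay within the sham range, and the fit without a filter gave a log2 fold change of -0.24 (95% interval -1.09 to 0.61).

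The alpha2 sum, at 6.04 ± 0.700 FPKM in CCI and 6.42 ± 0.349 FPKM in sham (SD, n = 3), overlapped between the groups (exact permutation p = 0.7). Within it the share of Adra2a was 38.7%, 26.4% and 30.3% in CCI 1, 2 and 3 against 23.8%, 22.5% and 23.7% in sham 1, 2 and 3. Every CCI library was above every sham library, by 8.49 percentage points in the mean, which again gave the smallest exact permutation p of 0.1 (adjusted 0.167). Without CCI 1 the difference was 5.05 percentage points. Adra2c held most of the rest, at 65.9 ± 6.40% in CCI and 74.1 ± 1.67% in sham. CCI 1, the library with the highest summed level of nerve injury genes, had the highest Adra2a share and the lowest Adra2c level (3.14 FPKM). CCI 2 and CCI 3 went the other way, with injury sums of 247 and 218 FPKM and Adra2a shares of 26.4% and 30.3%. A link between injury level and these values was not tested.

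For the beta receptors the counts were low. Adrb1 (chromosome 1, 277537585 to 277538985, plus strand), best known as the receptor that speeds the heart, held 30, 64 and 42 counts after CCI, against 12, 34 and 11 after sham surgery. Sham 2 was above CCI 1, so the groups overlapped. The fit without a filter gave a log2 fold change of 1.29 with a wide interval (-0.17 to 2.75) and an edgeR adjusted p of 0.616. Without sham 2 the log2 ratio of mean CPM was 2.08, and it lay between 0.98 and 1.53 when each of the others was left out. Adrb3, the beta receptor of fat cells, had counts in 1 library only.

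Drd2 varied strongly among the CCI rats. Its row lies on chromosome 8 from 53678777 to 53743642 (plus strand) and held 1917, 1114 and 821 counts in CCI 1, 2 and 3, against 840, 906 and 726 in sham 1, 2 and 3. CCI 1 stood far above all others and CCI 3 fell within the sham range. In FPKM the levels were 7.83, 4.60 and 3.60 in CCI and 3.18, 3.75 and 2.88 in sham, with means of 5.35 ± 2.21 and 3.27 ± 0.443 (SD, n = 3). The log2 fold change was 0.70 (SE 0.29), 1.62-fold higher in CCI, with an adjusted p of 0.467 in edgeR's test. Its 95% interval reached from just below 0 to 1.39, so that Drd2 narrowly missed the unadjusted limit.

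The Drd2 result turned on single libraries and settings. Without CCI 1 the log2 fold change was 0.31, and without CCI 3 it was 0.91 and Drd2 was called higher. It was also called with DESeq2's test, with no filter on low rows, with a minimum mean of 1 FPKM and among protein-coding rows alone, at log2 fold changes of 0.69 to 0.71. The adjusted p was lowest with DESeq2 (0.201) and highest with edgeR without sham 3 (0.705). CCI 1 was likewise the library with the highest summed levels of nerve injury genes (401 FPKM against 247 and 218 in CCI 2 and 3) and of macrophage markers (29.7 FPKM against 26.8 and 22.4), and the part of either in the Drd2 level was not tested.

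Drd1 was barely present. Its row on chromosome 17 (11101306 to 11103541, plus strand) held 23, 15 and 5 counts after CCI, against 23, 4 and 19 after sham surgery, and the groups overlapped throughout. The fit without a filter gave a log2 fold change of -0.02 with an interval from -2.03 to 1.99, so that a change was not detectable at this depth. Drd2 therefore made up 96.8% to 99.5% of the summed FPKM of Drd1 and Drd2 in every library, and that sum was 5.42 ± 2.25 FPKM in CCI and 3.34 ± 0.403 FPKM in sham (exact permutation p = 0.2, adjusted 0.25). The difference of these sums, 2.08 FPKM, was 0.812 FPKM without CCI 1. The remaining dopamine receptors were lower still. Drd3 reached at most 10 counts and Drd4 at most 7 in any library, and Drd5 had 0 counts in all 6.

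**Figure D4:**
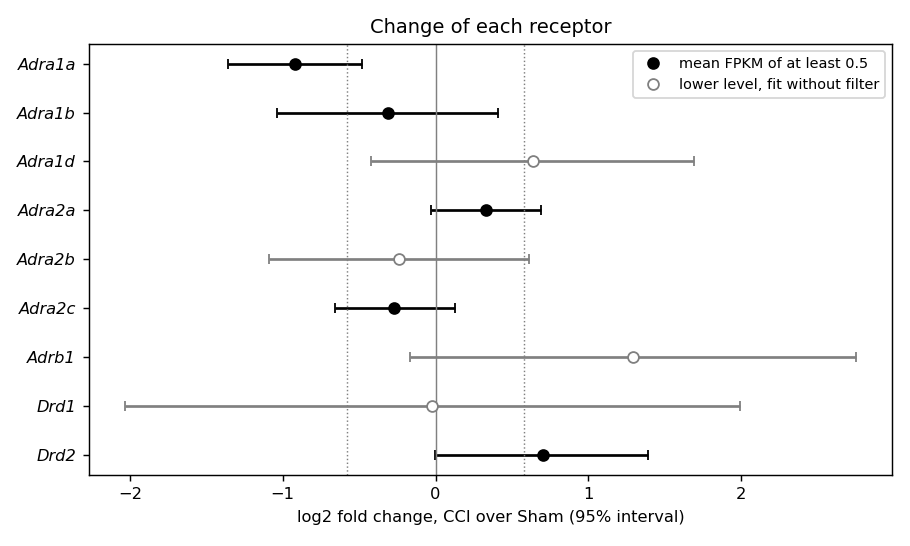
Log2 fold change (CCI over sham) of each receptor with its 95% interval from edgeR's quasi-likelihood fit; filled points are the 5 genes tested, open points the 4 lower genes from the fit without a filter, and dotted lines stand at 0.58 in either direction. The interval of Adra1a (-1.36 to -0.48) is the one that lies wholly on one side of 0.

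The members were also set beside the genes around them in catecholamine signalling, 76 genes in 8 lists, of which 75 were found and 57 tested. By the same limits 3 of the 57 were called higher and 1 lower, beside the 2.57% and 1.26% of all rows, and their median log2 fold change was 0.02, close to the 0.01 of all rows. In the list of synthesis, storage, uptake and breakdown, 4 of 14 genes had levels that could be tested and 1 was called. Maoa, the mitochondrial enzyme that breaks down noradrenaline and serotonin, held 10186, 7683 and 6537 counts after CCI, against 5318, 5102 and 4635 after sham surgery. Its groups did not overlap, and its log2 fold change was 0.76 (SE 0.15, edgeR adjusted p = 0.151). The related enzyme Maob gave -0.09 and the vesicular transporter Slc18a2 gave 0.09, and neither was called. Th, the rate-limiting enzyme of catecholamine synthesis, was too low to be tested, with 38 to 45 counts in CCI and 50 to 77 in sham. The fit without a filter gave Th a log2 fold change of -0.58 with a 95% interval from -1.33 to 0.17. Dbh, which makes noradrenaline from dopamine, had at most 8 counts.

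Of the tested genes that carry the receptor signal onward, 0 were called. For Gq coupling 0 of 6 tested genes were called (median log2 fold change -0.01), with -0.05 for the phospholipase Plcb3 and 0.01 for Gnaq. For Gi/o coupling 0 of 11 were called (median -0.03). There Gnai2 gave 0.12, Gnao1 -0.01, Gnai1 -0.24 and Gnai3 0.12. For Gs coupling 0 of 11 were called (median 0.08), with 0.08 for Gnas and -0.12 for Gnal. The list of receptor desensitization had 0 of 6 called, and Arrb1, the beta-arrestin 1 gene and its most abundant member, gave 0.34, under the fold limit (edgeR adjusted p = 0.305). The dopamine receptor partners Ncs1, Caly and Ppp1r1b gave 0.14, -0.13 and 0.12, with 0 of 3 called.

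RGS proteins, which speed the shut-off of G proteins, held the other 3 calls, from 15 tested genes of 18. Rgs6, a member of the R7 group that acts on Gi/o proteins, fell with hardly any spread, from 3790, 3713 and 3873 counts in sham to 2055, 2088 and 1937 counts in CCI. Its log2 fold change was -0.84 (SE 0.06), and with an adjusted p of 0.0133 in edgeR's test it was the one gene of the 57 past that limit. Rgs2, which prefers Gq, was called higher at 0.66 (edgeR adjusted p = 0.222), with 1349 to 1938 counts in CCI and 960 to 1062 in sham. Its value was under the fold limit without CCI 2 (0.48), with limma on log2(FPKM + 1) (0.53) and with libraries scaled to neuron markers (0.50). Rgs1, known from immune cells, was called higher at 1.44 (edgeR adjusted p = 0.243), with 480, 1155 and 562 counts in CCI and 211 to 326 in sham. Rgs4, by far the most abundant with a mean of 246 FPKM in CCI and 252 FPKM in sham, gave -0.06. In the same libraries 3 of 6 macrophage markers (Cd68, Csf1r and Cx3cr1) were called higher, the list summing to 22.4 to 29.7 FPKM in CCI and 15.4 to 18.1 FPKM in sham, and its part in these values was not tested.

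**Figure D5:**
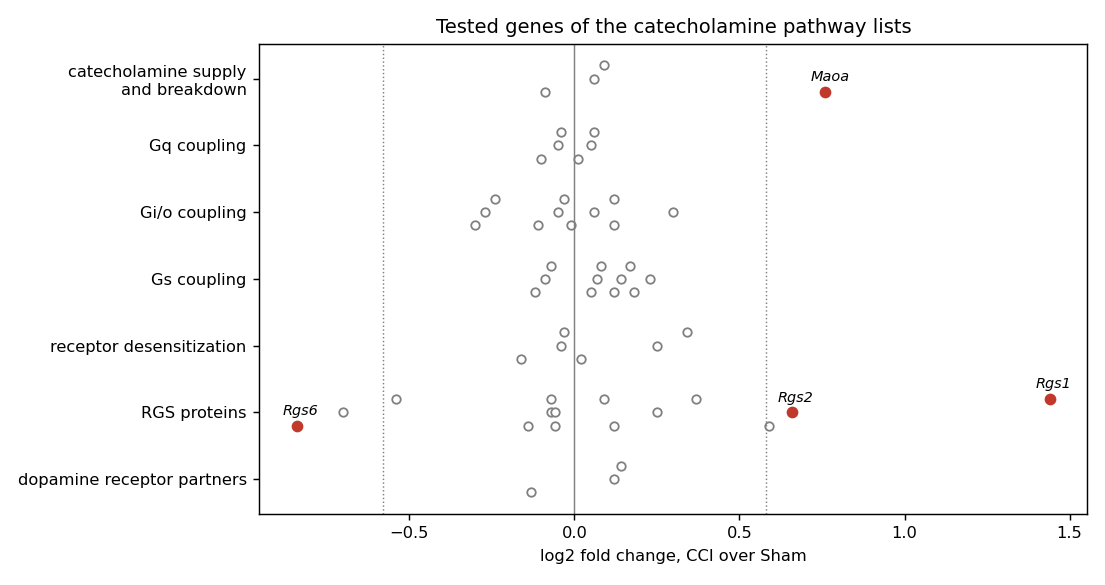
Log2 fold change (CCI over sham) of the tested pathway genes, 1 point per gene and 1 row per list with more than 1 tested gene (vertical offsets within a row only keep points apart); red named points are those called, and dotted lines stand at 0.58 in either direction. The 4 called genes are Maoa (0.76), Rgs1 (1.44) and Rgs2 (0.66) on the right and Rgs6 (-0.84) on the left.

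Markers of sensory neuron classes were measured beside the receptors, since alpha and dopamine receptors differ between such cells. The 8 nociceptor markers had a median log2 fold change of -0.15 with 0 called, and summed to 611 to 654 FPKM in CCI and 629 to 701 FPKM in sham. The 5 markers of large sensory neurons had a median of -0.24, and Pvalb, which marks proprioceptors, was called lower at -0.69. Their sum was 954 to 1080 FPKM in CCI and 1240 to 1310 FPKM in sham, with no overlap. Nefh, a neurofilament gene named here after its values were seen, made up most of that sum, at 515, 615 and 580 FPKM in CCI and 777, 829 and 860 FPKM in sham, while Spp1 of the same list had a log2 fold change of 0.25. The part of these cells in the Adra1a level was not tested. With libraries scaled to the 6 neuron markers in place of all rows, which moved the median over all rows to -0.16, the log2 fold change of Adra1a was -1.08 (edgeR adjusted p = 0.141) and that of Drd2 was 0.53 (adjusted p = 0.408). This scaling used summed counts, to which Tubb3 added most, and the 6 markers moved both ways. Tubb3 gave 0.31, Prph 0.25, Uchl1 0.05, Isl1 -0.13, Rbfox3 -0.24 and Snap25 -0.39, so the scaled values are not changes per neuron. Leaving out sham 1, the library with the most muscle RNA, gave -0.97 for Adra1a and 0.67 for Drd2. That fit still held sham 3, whose muscle markers summed to 17.3 FPKM against 4.13 to 7.85 FPKM in CCI.

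For each of the 5 tested receptors the 3 protein-coding genes with the most similar pattern were sought among 13613 rows, by Pearson's r of log2 CPM over the 6 libraries. All 15 lay between 0.985 and 0.998. These are the highest values picked from 13613 rows, each over 6 libraries only, so they do not by themselves show shared regulation. For Adra1a the 3 genes were Tex2 (0.997), Ndufb11 (0.994) and Six4 (0.992), whose own log2 fold changes were -0.07, -0.06 and -0.42. For Drd2 they were the joined row of Akap8 and Akap8l (0.998), Map9 (0.997) and Glrx (0.996). Adra2a was most like Reep4, Sh3bp2 and Pisd (0.989 each), Adra2c most like LOC100362176 (0.995), Lhfpl4 (0.991) and Samd11 (0.987), and Adra1b most like Ca11 (0.987), Shf (0.985) and Ntn3 (0.985).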

How the data were processed

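Of the deposited table of 43350 rows, the 6 count columns and 6 FPKM columns were used. The counts are whole numbers of reads per row that the authors deposited without normalization; the FPKM values were made by the authors from those counts, with rows of 0 counts listed at 0.0001. According to the methods the authors mapped reads to the rat genome V101 and assembled loci; the submitters' processing notes name HISAT2 2.0 and StringTie 1.3.0. The library kit marks strand, but its use in counting is not given in the sources used here, so overlapping loci are less certain. 0 columns belonged to other samples.

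Counts of the 26663 rows with a mean of at least 0.5 FPKM were fitted with edgeR 4.0.16 (glmQLFit and glmQLFTest, TMM factors of 0.988 to 1.01, group as the only term), with Benjamini-Hochberg adjustment over all rows tested. The limits for a call were a p under 0.05 before adjustment and a log2 fold change beyond 0.58 either way. Class sums and shares were compared with two-sided exact permutation tests. The edgeR p-values set the difference between the groups against the spread among libraries, each taken as 1 rat. The permutation p-values rank that difference among all ways of dividing the libraries into groups. The test was checked on simulated data. Named genes were all members, every pathway gene called, at most 4 uncalled genes of highest level in a list, called or near-absent markers, and 3 genes of most similar pattern per tested member; Arrb1, the receptors outside the 9, Th and Dbh belong to those lists, and Th, Dbh and the receptors were named after their values were seen. The members and lists were chosen with earlier results of these data known. Alternatives were DESeq2 1.42.0 (test and size factors), limma 3.58.1 on log2(FPKM + 0.1) and log2(FPKM + 1), other filters, protein-coding rows alone, a replicate block and leaving out each library; the sum of the Adra1a rows and scaling to neuron markers were added after seeing the data. The miRNA libraries and qRT-PCR values were not analysed here, and some genes of the lists are not reported here.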

Additional observations from a re-analysis of the deposited data

How the results depend on the processing

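Adra1a was called lower in 15 of 16 alternatives, with a log2 fold change between -1.21 and -0.43. The exception was limma on log2(FPKM + 1), where its value of -0.43 was under the fold limit and 0 members were called lower. With a minimum mean of 1 FPKM Adra1a was not tested, and 0 members were called lower. The number of members called higher was 0 in the main comparison and 1 (Drd2) with DESeq2's test, no filter, a minimum mean of 1 FPKM or protein-coding rows alone, and between 0 and 1 when each library was left out. The number with an adjusted p under 0.05 was 1 with DESeq2's test, for which the share of all rows was not counted, and 0 otherwise. Drd2 lay between 0.31 and 0.91, Adra2a between 0.17 and 0.44, Adra2c between -0.42 and -0.12 and Adra1b between -0.61 and -0.11.

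Of all rows, 686 were called higher and 336 lower. These counts became 353 and 115 among protein-coding rows alone and 410 and 161 with limma on log2(FPKM + 1). They became 390 and 746 with libraries scaled to neuron markers. Fewer rows were tested in the first of these settings. In the main fit, lower calls were also rarer among protein-coding rows (0.853%) than among all rows (1.26%). A larger pseudocount shrinks the folds of low rows in the second, and the scaling itself shifts all folds downward in the third. Pathway genes called lower numbered 1, and 2 with the neuron marker scaling (Rgs6 and Rgs3, at -0.68), and between 1 and 2 when each library was left out, the second gene being Rgs17 (-1.25) without CCI 2 or Rgs3 (-0.72) without sham 1. Pathway genes called higher numbered 2 to 4, the additions being Plcb2 (0.97 with no filter) and Rgs16 (0.92 without sham 1). Rgs2 stayed under the fold limit at 0.53 with limma on log2(FPKM + 1), 0.48 without CCI 2 and 0.50 with the neuron marker scaling. No class sum or share changed direction under its 7 alternatives.

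Same-numbered CCI and sham libraries did not deviate together (r of -0.0112, -0.0261 and -0.0745). These values show no sign of pairing by replicate number, but they cannot exclude a pairing in the design, which the sources used here do not state. With a replicate block the log2 fold changes were -0.93 for Adra1a (edgeR adjusted p = 0.421), 0.62 for Drd2 (adjusted p = 0.588) and 0.32 for Adra2a, and 1 member was called lower. The 4 members under the minimum held at most 139 counts in a library, and 3 rats in each group bound every comparison.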
